A study of Mus musculus with 2 samples.

Results

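The *Zic* zinc finger family was examined as 4 genes, *Zic1*, *Zic2*, *Zic4* and *Zic5*, chosen by symbol among the 29311 genes that both tables list. All 4 were found. RNA-seq was done on 1 sample of wild-type E14 ES cells, cultured without feeders in serum with LIF, and on 1 sample of wild-type forebrain from B6CBAF1/J embryos at E10.5, a stage at mid-gestation. Both were ribo-depleted total RNA, and the methods of the study state that forebrain RNA came from single embryos. Strain, culture and stage differ together with cell type and cannot be told apart. There are no replicates, so that no difference described here has a replicate check and no test was made. In bulk RNA, fewer cells of a type and less RNA per cell cannot be told apart either.

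*Zic* genes encode C2H2 zinc finger transcription factors related to the Gli proteins and to *Drosophila* odd-paired. In the vertebrate embryo they act in the dorsal neural tube and its roof plate, at the neural plate border and in the neural crest, and they are known for their part in the development of forebrain and cerebellum. *Zic2* is mutated in human holoprosencephaly, a failure to divide the forebrain, and a deletion of *ZIC1* together with *ZIC4* has been linked to Dandy-Walker malformation of the cerebellum. The members lie in neighbouring pairs with their starts facing each other, *Zic1* with *Zic4* and *Zic2* with *Zic5*.

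In the deposited coordinates (NCBIM37, mm9), *Zic1* (ENSMUSG00000032368) lies on the minus strand of chromosome 9, from 91252896 to 91260648. *Zic4* (ENSMUSG00000036972) lies on the plus strand, from 91257251 to 91284186. Both gene bodies overlap, because 1 of the 12 annotated *Zic4* transcripts starts inside *Zic1*. Their exons, on opposite strands, share 60 bases, in which reads of both genes can be told apart only if counting used strand. Between the RefSeq starts of *Zic1* and *Zic4* lie 3204 bp. On chromosome 14, *Zic5* (ENSMUSG00000041703) extends on the minus strand from 122856017 to 122864899 and *Zic2* (ENSMUSG00000061524) on the plus strand from 122874604 to 122879074, with starts 9705 bp apart and no shared exonic base.

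**Figure D1:**
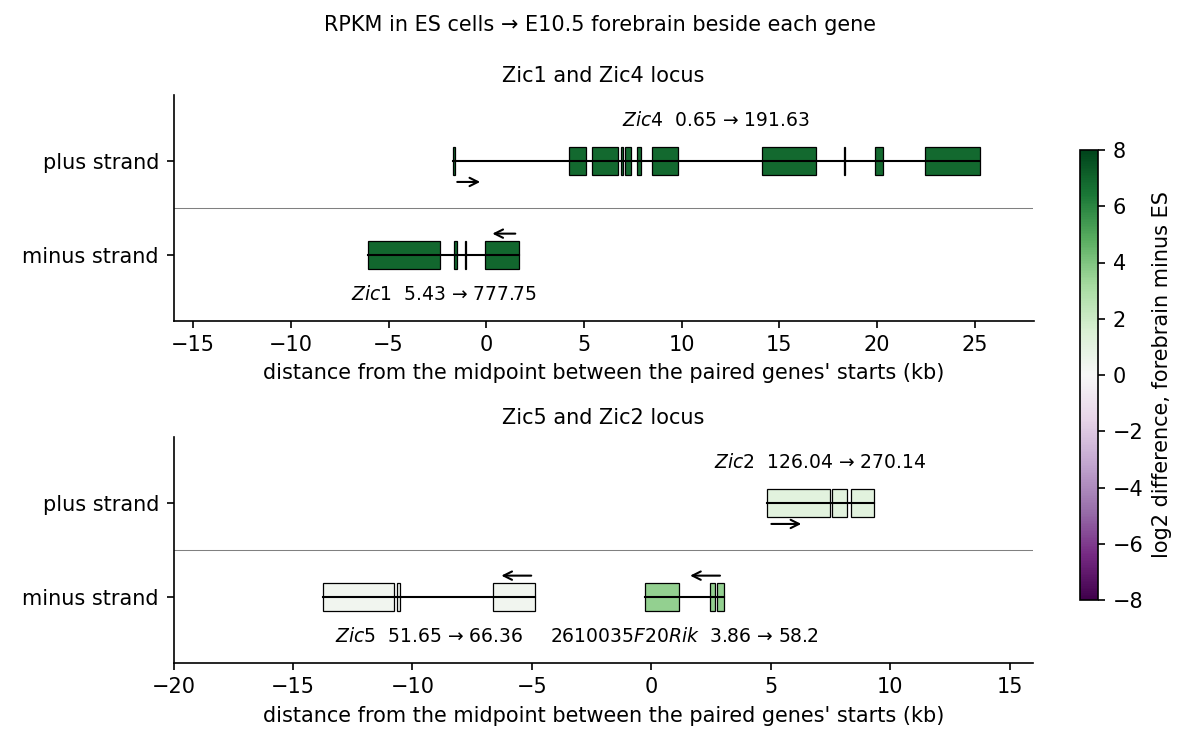
Maps of both *Zic* pairs by distance (kb) from the midpoint between the starts of the paired genes, with boxes for annotated exons and arrows for the direction of transcription. The RPKM values beside each gene are those of ES cells (first) and of E10.5 forebrain (second), and the fill gives the log2 difference. *Zic1* (6.92) and *Zic4* (6.87) are both dark, while *Zic5* (0.36) and *Zic2* (1.09) are pale on either side of a lincRNA at 3.61.

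RefSeq promoter windows of the 250 bases before the start (GRCm38.p6) were at hand for 3 members, *Zic1*, *Zic4* and *Zic5*, each with a single match in NCBIM37. The windows of *Zic1* and *Zic5* are shown because they precede the member of each pair that is read from the minus strand, the former with a large difference between the samples and the latter with a small one. They are given 5′ to 3′ on the minus strand, at NCBIM37 coordinates, and end where the first annotated exon begins. Capitals mark the GC box, spelled GGGCGG, and the CCAAT box. Both were searched on either strand, as was the TATA box in the spelling TATAAA, and the printed matches do not overlap.
*Zic1*, chr9:91260649-91260856: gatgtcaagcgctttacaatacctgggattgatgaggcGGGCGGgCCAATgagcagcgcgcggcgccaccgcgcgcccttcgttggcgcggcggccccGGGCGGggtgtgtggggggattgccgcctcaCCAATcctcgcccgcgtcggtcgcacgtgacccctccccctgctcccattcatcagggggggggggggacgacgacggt
*Zic5*, chr14:122864900-122865130: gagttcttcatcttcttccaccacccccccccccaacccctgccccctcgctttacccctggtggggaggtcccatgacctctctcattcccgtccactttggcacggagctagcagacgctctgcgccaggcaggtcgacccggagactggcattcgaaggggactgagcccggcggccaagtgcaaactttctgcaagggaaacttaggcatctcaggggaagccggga

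The full window of *Zic1* held 2 GC boxes and 2 CCAAT boxes, and 27 CG dinucleotides at a GC content of 66.0%. This number of CG dinucleotides lay at percentile 92.4 of 32851 RefSeq windows of the same length. The window of *Zic5* held 11 CG dinucleotides (percentile 66.5) and that of *Zic4* 4 (percentile 44.4), and neither held any of these boxes. Among all windows, 32.7% held the GC box, 33.8% the CCAAT box and 12.4% the TATA box. The window of *Zic4* lies within an annotated *Zic4* exon and is not shown.

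The deposited RPKM values rested on 42781829 reads for ES cells and 59785695 for the forebrain, as inferred from the value of 1 read per kb of exon. They are 52.2 and 49.0 times larger, respectively, than RPKM per 1000000 of these reads. All 5 markers of ES cells were at least 4-fold higher there (at least 2 on log2(RPKM + 1)) and all 5 forebrain markers were at least 4-fold higher in the forebrain, with summed RPKM of 18.82 in ES cells and 1529 in the forebrain for the latter. The dissected tissue also carried transcripts of other cells. The 6 markers of head mesenchyme summed to 36.24 in ES cells and 5019 in the forebrain, and all were at least 4-fold higher in the latter, as were the 4 markers of primitive blood and 3 of 4 of endothelium. The 4 markers of surface ectoderm (1861 and 545.5) had 1 such gene in each direction, and *Epcam* alone held 1685.28 of the ES cell sum. Over all listed genes, 14.4% were at least 4-fold higher in the forebrain and 11.3% in ES cells. The 5 midbrain and hindbrain markers summed to 518 in ES cells, where *Gbx2* alone had 459.98, and to 76.97 in the forebrain. None was at 0, but in the forebrain they ranged from 8.03 to 25.98, below the median of 62.37 over all listed genes.

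*Zic1* and *Zic4* were expressed in the forebrain and barely in ES cells, whereas *Zic2* and *Zic5* were expressed in both. *Zic1* had an RPKM of 5.43 in ES cells and 777.75 in the forebrain, and *Zic4* had 0.65 and 191.63. *Zic2* had 126.04 in ES cells and 270.14 in the forebrain. *Zic5* had 51.65 and 66.36. All 4 genes were thus higher in the forebrain, 2 of them by at least 4-fold on log2(RPKM + 1). Over all 29311 listed genes, 14.4% were at least 4-fold higher in the forebrain and the median log2 difference was 0.01.

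**Figure D2:**
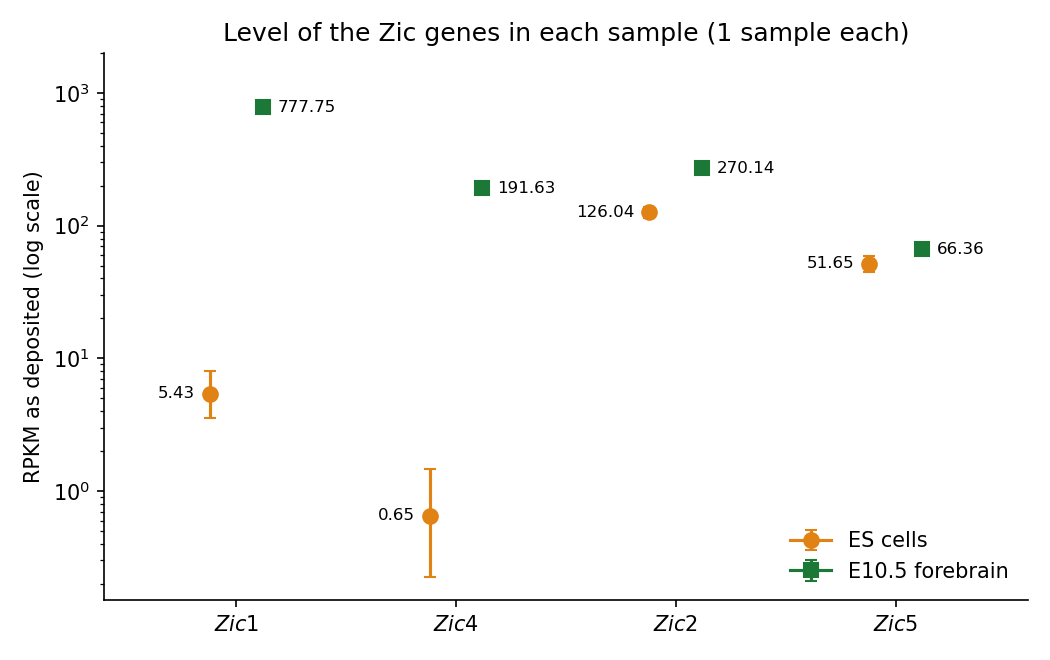
RPKM as deposited (log axis) of the 4 members in ES cells (orange circles) and E10.5 forebrain (green squares), 1 sample each. Bars are exact Poisson 95% intervals for the counting of reads, and most are smaller than the symbols. The ES cell values of *Zic1* (5.43) and *Zic4* (0.65) lie far below all others.

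*Zic1*, a regulator of dorsal neural progenitors and of the cerebellum, differed by 6.92 on log2(RPKM + 1). The ratio of the deposited values was 143 in favour of forebrain (exact 95% interval for the counting of reads, 97.2 to 221). In ES cells its value came from the equivalent of 25.3 reads, which gives an RPKM interval of 3.52 to 8.0. In E10.5 forebrain it came from 5405.8 reads (757 to 799). *Zic1* stood at percentile 28.5 of the listed genes in ES cells and at percentile 84.5 in the forebrain, and its difference ranked 202 of 29311 genes and 162 of 19620 protein-coding genes.

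*Zic4*, expressed with *Zic1* in the dorsal neural tube, differed by 6.87 on the same scale, at rank 208 of all listed genes. Its ES cell value rested on the equivalent of 5.5 reads (RPKM 0.226 to 1.46), just above the 0.354 that 3 reads would give. In E10.5 forebrain it rested on 2418.0 reads (184 to 199). The ratio of the deposited values was 295, with a wide interval of 131 to 850 that follows from the few ES cell reads. This interval overlapped that of *Zic1*.

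*Zic2*, the holoprosencephaly gene of the family, differed by 1.09 on log2(RPKM + 1), a ratio of 2.14 (1.92 to 2.39). It rested on 432.1 reads in ES cells (RPKM 114 to 139) and on 1380.6 in the forebrain (256 to 285). *Zic5*, known from neural tube closure and the neural crest, differed least, by 0.36, a ratio of 1.28 (1.08 to 1.53) from 206.8 reads in ES cells (RPKM 44.9 to 59.2) and 396.1 in the forebrain (60.0 to 73.2). These intervals do not reach 1, but they cover the counting of reads only, and ratios of this size were common. By its difference *Zic2* ranked 7128 and *Zic5* 11832 of the listed genes. In both samples *Zic5* stood near the middle of the listed genes, at percentile 50.6.

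The order of the members differed between the samples. In ES cells, *Zic2* was highest, followed by *Zic5*, *Zic1* and *Zic4*. With merged exons as length, the intervals of neighbours in this order did not overlap. In E10.5 forebrain the order was *Zic1*, *Zic2*, *Zic4* and *Zic5*, again without overlapping intervals. The order of *Zic2* and *Zic4* there depends on the length used. With the longest transcript as length, *Zic4* had an RPKM of 509 (489 to 530) and *Zic2* of 432 (410 to 456) in the forebrain, so that *Zic4* stood above *Zic2*. In ES cells the order held with this length, but the intervals of *Zic1* (3.58 to 8.12) and *Zic4* (0.599 to 3.88) overlapped. The *Zic1*-*Zic4* pair held 3.31% of the summed RPKM of the members in ES cells (6.08 of 183.77) and 74.2% in the forebrain (969.38 of 1305.88). The *Zic2*-*Zic5* pair summed to 177.69 and 336.50, a ratio of 1.89.

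Within the pairs, the gene with the higher RPKM was the same in both samples. *Zic1* exceeded *Zic4* by 8.35 times in ES cells (3.25 to 26.2) and by 4.06 times in the forebrain (3.87 to 4.26), as a ratio of RPKM, which is per length. The shift of this ratio from ES cells to forebrain was 0.486-fold, with an interval of 0.180 to 1.34 that includes 1, so that a different ratio was not detectable at the depth of *Zic4* in ES cells. *Zic2* exceeded *Zic5* by 2.44 times in ES cells (2.06 to 2.89) and by 4.07 times in the forebrain (3.64 to 4.56). Here the shift was 1.67-fold and the interval of 1.36 to 2.05 did not include 1. The paired genes *Zic2* and *Zic5* therefore differed from each other in their ratio between the samples by more than the counting of reads.

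The ratios within a sample depend on the length by which reads are divided. All annotated exons of *Zic4* together cover 10335 bp, but its longest transcript has 3891 bp, whereas for *Zic1* the values are 5693 and 5606 bp. With the longest transcript as length, the log2 ratio of *Zic1* over *Zic4* in the forebrain was 0.63 in place of 2.02.

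Pairs of protein-coding genes on opposite strands and read away from each other, with starts within 20 kb, served as the background for both *Zic* pairs. Gene bodies could overlap, as in *Zic1*-*Zic4*. No other listed protein-coding gene was allowed to start between both starts, but non-coding genes were. Of 2721 such pairs with both genes listed, 63 (2.32%) had both genes at least 4-fold higher in the forebrain. Of the 413 pairs in which at least 1 gene was at least 4-fold higher, 15.3% had both genes so. This is a share of pairs and not of genes. *Zic1*-*Zic4* was 1 of the 63 and ranked 2 of them by the smaller of both differences, after *Nr2f2* with *B130024G19Rik*. Next followed *Col4a1* with *Col4a2*, the collagen IV genes. *Zic2*-*Zic5* was not among them.

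The differences of *Zic1* and *Zic4* lay 0.05 apart on log2(RPKM + 1), compared with a median of 1.00 (quartiles 0.43 and 1.92) over all pairs. This gap depended on the pseudocount and was 0.86 with a pseudocount of 0.1 and 1.11 with 5. For *Zic2*-*Zic5* it was 0.74, at percentile 39.1 of the pairs. In E10.5 forebrain the log2 ratio within *Zic1*-*Zic4* was 2.02 and that within *Zic2*-*Zic5* was 2.01, close to the median of 2.30 over all pairs.

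**Figure D3:**
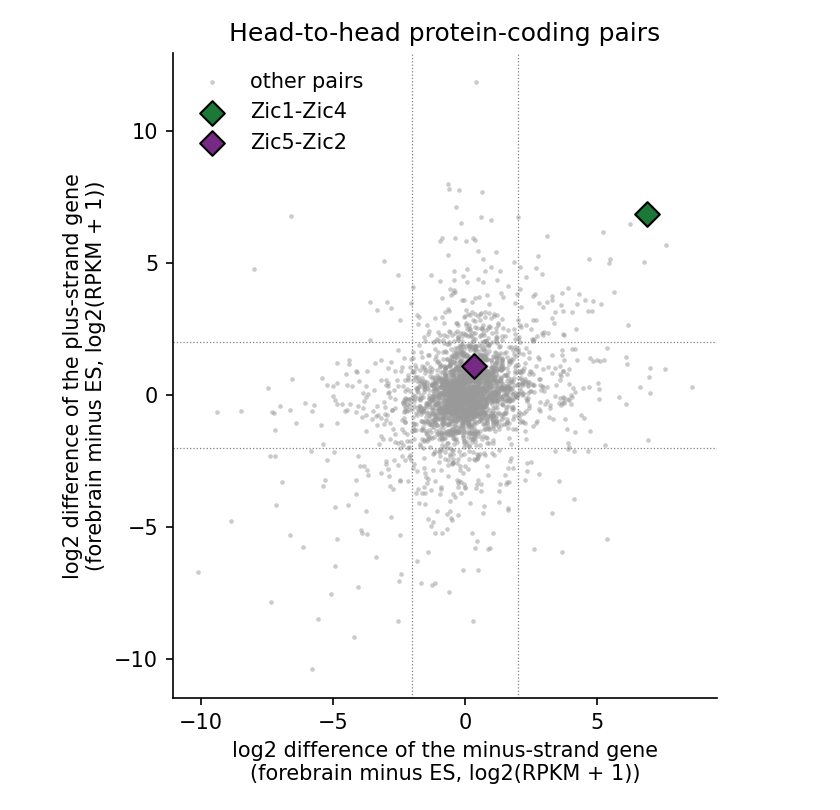
Log2 difference (forebrain minus ES cells, log2(RPKM + 1)) of the minus-strand gene against that of the plus-strand gene for 2721 head-to-head protein-coding pairs, with dotted lines at 4-fold. *Zic1*-*Zic4* (green) lies at 6.92 and 6.87, among the 63 pairs of the upper right field, and *Zic5*-*Zic2* (purple) at 0.36 and 1.09 in the dense centre.

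Between *Zic5* and *Zic2* the annotation holds a lincRNA, *2610035F20Rik* (ENSMUSG00000085555, chromosome 14, 122869506 to 122872801). It is read from the minus strand, starts 1803 bp from the start of *Zic2* and points away from it. Its RPKM was 3.86 in ES cells, from 6.0 reads, and 58.2 in the forebrain, from 135.0 reads, a ratio of 15.1 (6.76 to 41.9). This ratio was larger than those of *Zic2* and *Zic5* on either side, with intervals that did not overlap. Of the 17 other genes annotated within 500 kb of *Zic2*-*Zic5*, the lincRNA was the 1 that was at least 4-fold higher in the forebrain. That is no larger a share than the 14.4% of all listed genes. The median log2 difference of the 17 was 0.46. Around *Zic1*-*Zic4*, where the annotation is sparse, 1 other gene was listed within 500 kb, the pseudogene *Gm5620*, with an RPKM of 437.89 in ES cells and 612.85 in the forebrain.

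The Gli and Glis proteins are the closest relatives of the Zic proteins, and Gli proteins carry the hedgehog signal. All 6 of these genes were higher in the forebrain, and their median log2 difference was 1.53, compared with 0.01 over all listed genes. Of the 6, 1 was at least 4-fold higher, a share near the 14.4% of all listed genes. *Gli3*, which restrains hedgehog targets in the dorsal forebrain, had an RPKM of 65.38 in ES cells and 731.62 in the forebrain. *Glis2* had 117.49 and 203.23, *Gli1*, itself a hedgehog target, 45.68 and 146.73, and *Gli2* 40.43 and 112.57. *Gli3* in the forebrain was thus close to *Zic1* in RPKM.

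Genes mutated in holoprosencephaly along with *Zic2* went both ways. Of 10 listed genes, 5 were at least 4-fold higher in the forebrain and 3 in ES cells, with a median log2 difference of 1.84. Over all listed genes the shares were 14.4% and 11.3%. *Cdon*, a hedgehog co-receptor, had an RPKM of 86.89 in ES cells and 1000.82 in the forebrain. The Nodal co-receptor *Tdgf1* had 6431.61 and 4.72, its transcription factor *Foxh1* 1002.12 and 9.72, and the repressor *Tgif1* 1626.13 and 589.51.

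Genes of the dorsal midline, where *Zic* genes are known to be active, were mostly higher in the forebrain. Of 12 genes, 9 were at least 4-fold higher in the forebrain and 1, *Bmp4* (1748.68 in ES cells and 264.07 in the forebrain), in ES cells. Their median log2 difference was 4.02. The shares of all listed genes were 14.4% and 11.3%. *Msx1*, a target of BMP signals, had an RPKM of 9.46 in ES cells and 1491.72 in the forebrain, and the Wnt enhancers *Rspo3* and *Rspo1* had 1.02 and 438.97, and 12.6 and 360.62. By log2 difference, *Zic1* and *Zic4* lay within the range of these genes (-2.72 to 7.98), and *Zic2* and *Zic5* in its lower part. So wide a range does not mark a likeness.

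Of 9 genes of the neural plate border and neural crest, 6 were at least 4-fold higher in the forebrain and 1 in ES cells. This compares with 14.4% and 11.3% of all listed genes. The median log2 difference of the 9 was 3.39. *Msx1* and *Msx2* (23.86 in ES cells and 243.03 in the forebrain) stand in this list as well. *Foxd3*, a factor of both neural crest and ES cells, had an RPKM of 214.4 in ES cells and 19.43 in the forebrain. *Pax3*, a dorsal neural tube gene, was listed at 0 in ES cells and had 179.32 in the forebrain.

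In ES cells, genes of naive pluripotency were all higher, 9 of 9 by at least 4-fold, with a median log2 difference of -6.47. Over all listed genes, 11.3% were at least 4-fold higher in ES cells. *Zfp42* had an RPKM of 11505.32 in ES cells and 58.93 in the forebrain, *Tfcp2l1* (listed as *Tcfcp2l1*) 3898.01 and 5.26, *Nr0b1* 2357.33 and 35.79, and *Esrrb* 2140.4 and 5.01. Genes of primed or formative pluripotency were divided, with 3 of 7 at least 4-fold higher in the forebrain (14.4% of all listed genes) and 2 in ES cells. Among them, *Otx2*, also a forebrain regulator, had 78.53 in ES cells and 989.44 in the forebrain, *Dnmt3b* 1514.73 and 233.65, *Dnmt3a* 182.56 and 643.23, and *Sox3* 34.62 and 247.42. The differences of *Zic2* and *Zic5* fell between those of *Dnmt3b* (-2.69) and *Otx2* (3.64), the lowest and highest of the latter list. That span also holds the median of all listed genes (0.01), so it does not mark a likeness to this list.

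**Figure D4:**
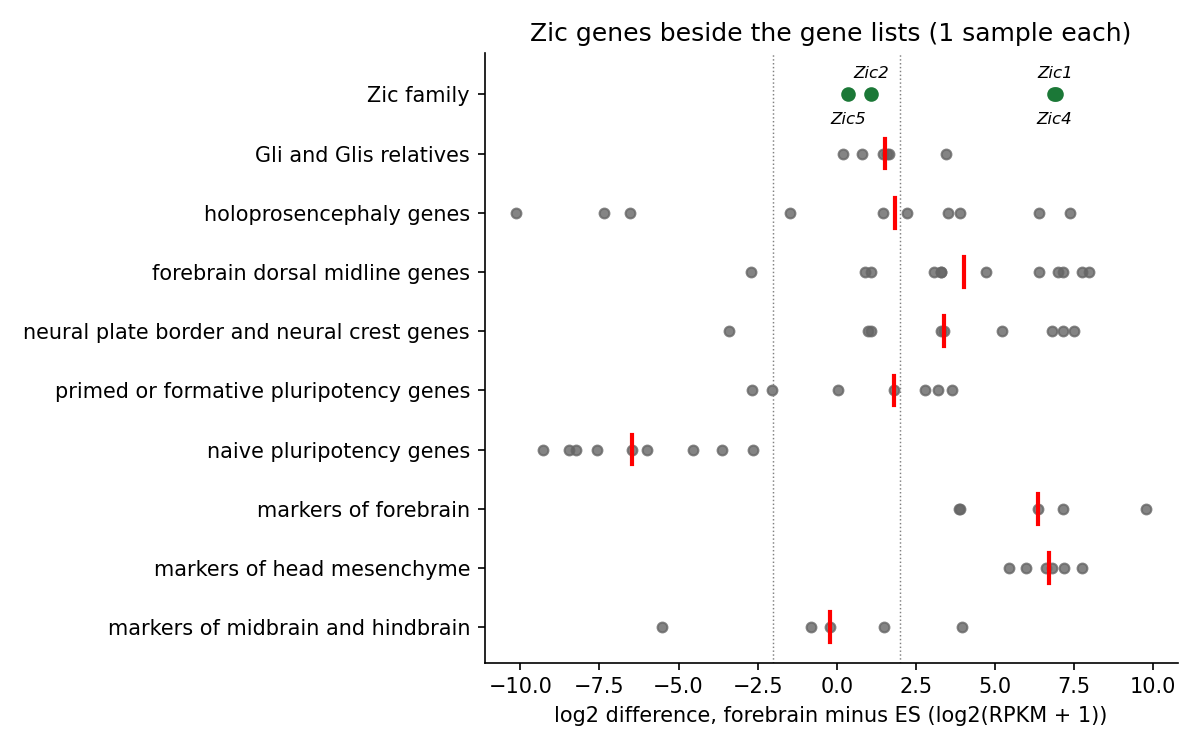
Log2 difference (forebrain minus ES cells, log2(RPKM + 1)) of the *Zic* genes and of every listed gene of 6 gene lists and 3 marker lists, with the median of each list in red and dotted lines at 4-fold. *Zic1* and *Zic4*, near 6.9, fall in the range of the dorsal midline, holoprosencephaly, and neural plate border and neural crest lists. They also fall in that of the markers of forebrain (median 6.36) and head mesenchyme (median 6.71).

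*Zic1* and *Zic4* shared their direction with markers of several cell types of the dissected tissue. In the forebrain sample, the 6 head mesenchyme markers ranged in RPKM from 131.9 (*Foxc2*) to 1795.6 (*Pdgfra*) and the 5 forebrain markers from 15.86 (*Six3*) to 876.64 (*Lhx2*), so that both ranges overlapped. In ES cells they ranged from 2.02 to 12.84 and from 0 to 17.54. Their part in the *Zic* values was not tested. Over both samples, the protein-coding genes nearest to *Zic1* in level were *Ets1* (6.37 and 712.46), *Ddr2* (7.25 and 745) and *Mn1* (6.33 and 618.3), at distances of 0.23 to 0.38 on log2(RPKM + 1). Those nearest to *Zic4* were *Angpt1*, *Pgcp* and *Slitrk6*, at 0.16 to 0.17. Those nearest to *Zic2* were *Exog*, *Efcab7* and *Map3k10* and those of *Zic5* were *Rom1*, *BC067074* and *Accn2*, all within 0.03. With 2 samples, such likeness says only that both values are close.

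Reads shared between genes could blur such differences, and the share of transcript sequence found exactly in another protein-coding gene was small. The rest of the genome was not searched. Of all stretches of 50 bases in the protein-coding transcripts, 19 of 5674 (0.335%) of *Zic1* and 14 of 5376 (0.260%) of *Zic4* occurred in another gene on either strand. In each, 14 of them occurred in the other gene of this pair. The 60 exonic bases that both genes share on opposite strands are too few to hold all 14. For *Zic5* it was 1 of 4718, and for *Zic2* 0 of 3698.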

How the data were processed

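RNA-seq was measured in 1 sample of ES cells and 1 of E10.5 forebrain. The authors mapped single-end reads of stranded libraries to NCBIM37 (mm9) with the HTSstation pipeline (Bowtie 0.12.7 per the submitters' processing notes) and deposited RPKM values per gene. The scaling between samples, and whether counting used strand, are not given in the sources used here. The labels give reads of 100 bp and the study's methods 50 bp.

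The annotation of this build held all 29311 IDs, with equal starts. For low genes, values times exonic length in kb crowded at multiples of a step, which was taken as the value of 1 read. The step was estimated as 1.221 (ES cells) and 0.8191 (forebrain). Of low genes, 66.5% of 4873 and 69.4% of 4632 lay within 0.05 of a whole multiple, and the others did not. Each gene was given reads by this step and its merged exons, left unrounded. The *Zic* values, from genes of several transcripts, did not all come out whole, so that their reads are approximate. Intervals are exact 95% Poisson intervals for values and Clopper-Pearson or conditional odds ratio intervals for ratios (whole reads for the latter), and cover counting error only. Differences are on log2(RPKM + 1), a scale that understates those of low genes, and 4-fold means at least 2 on this scale. No test was made, as there is 1 sample per group. The step estimate and the 4-fold call were tested on simulated data. The simulation used whole reads on the same merged exons, so it cannot check these lengths, and the intervals were not simulated.

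The members, gene lists and comparisons were chosen with earlier results of these data known. Named genes were the members, genes within 500 kb, up to 4 genes with the highest value in each list, and the 3 nearest protein-coding genes by Euclidean distance over both samples. The other head-to-head pairs and the markers quoted by name were added after their values were seen. The holoprosencephaly gene *Disp1* is in neither table. Some genes of the original rule and lists are not reported here. A symbol with several IDs was read from the one with the most exonic bases, and older symbols were matched through RefSeq. Promoter windows are from RefSeq. The work was done in Python 3.11.15 (pandas 2.3.3, numpy 2.4.6) with scipy 1.17.1 for intervals and matplotlib 3.10.9 for plots.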

Additional observations from a re-analysis of the deposited data

How the results depend on the processing

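The 4 differences, the 4 ratios within pairs, 4 ratios between neighbours in the order of levels and the number of genes at least 4-fold higher in E10.5 forebrain were computed under 46 alternatives, 9 of them chosen after seeing the data. The log2 ratio of *Zic2* over *Zic4* in the forebrain changed direction, from 0.49 to -0.24 with the length of the longest transcript, and no other value did. *Zic1* and *Zic4* were the members at least 4-fold higher in forebrain under every alternative for the differences. Of the 46, 11 were labelled as moved, by a rule based on the counting interval, or on over 1.5 times for the number of genes. This label does not follow the printed intervals throughout. The log2 ratio of *Zic1* over *Zic4* in ES cells was 0.88 with a pseudocount of 5 in place of 1.96, and was not so labelled. With a pseudocount of 5, the log2 difference was 6.23 for *Zic1* and 5.12 for *Zic4*. On RPKM per 1000000 inferred reads, where a pseudocount of 1 weighs about as much as 50 would on the deposited values by construction, it was 3.93 for *Zic1*, 2.28 for *Zic4* and 0.93 for *Zic2*, and 1042 genes in place of 4222 were at least 4-fold higher. With the pseudocount lowered to 0.02 on that scale, the differences were 7.0, 6.92 and 1.19 and the number 4392. By construction this setting nearly repeats the main one, so it is no independent check. With the length of the longest transcript, the log2 ratio of *Zic1* over *Zic4* in E10.5 forebrain was 0.63, and that of *Zic2* over *Zic5* was 1.91 (ES cells) and 2.65 (forebrain). In the forebrain, that of *Zic1* over *Zic2* was then 0.87 in place of 1.52 and that of *Zic4* over *Zic5* 2.88 in place of 1.52. The 5.5 reads of *Zic4* in ES cells limit its ratio. No paired analysis was possible because there is 1 sample per group and no test.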

Other observations

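Of the genes within 500 kb of *Zic2*-*Zic5*, *Timm8a2*, a copy of a mitochondrial import gene 418 kb from the pair, had an RPKM of 86.92 in ES cells (65.0 reads) and of 0.9 in the forebrain, from 1.0 read. It was the 1 of 17 other genes that was at least 4-fold higher in ES cells, no larger a share than the 11.3% of all listed genes. *Tm9sf2* (3298.15 and 2863.61) and *Ubac2* (749.08 and 660.45) had nearly equal values in both samples. *Tmtc4* had 132.41 and 378.47, and *Pcca*, a propionyl-CoA carboxylase subunit, 185.36 and 316.87. Next to *Zic2*, *Gm10837* had an RPKM of 1.32 from 1.7 reads and of 7.29 from 13.7 reads. Of 6 genes of early differentiation, 2 were at least 4-fold higher in ES cells and 1 in the forebrain (11.3% and 14.4% of all listed genes). The early mesoderm gene *T*, named after its values were seen, was at 1112.09 in ES cells and at 2.66 in the forebrain.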
